A study of Mus musculus with 6 samples.

Results

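The genes of voltage-gated sodium and calcium channels were measured in RNA from mouse tissue labelled as the paraventricular nucleus of the hypothalamus. They were taken by name from the deposited gene table, with no minimum level, and comprise every gene named Scn with a number and a or b, Cacna1, Cacnb1 to Cacnb4 or Cacna2d1 to Cacna2d4. This gave 32 of the 51826 genes listed, 14 for sodium channels (10 alpha and 4 beta subunits) and 18 for calcium channels (10 alpha1, 4 beta and 4 alpha2delta subunits). The WT group held 3 libraries from mice of wild-type genotype, and the KO group held 3 libraries from mice whose glutamatergic neurons lack ADAM17, a membrane protease that sheds cell-surface proteins. In each group replicates 1 and 2 were male and replicate F1 was female, and values per library are listed in that order. Age, strain, the driver of the knockout, any treatment and the number of animals behind a library are not stated by the labels, so p-values measure the spread between these libraries, which may in part be technical. The question, per the stated design, was how the knockout affected gene expression in this nucleus.

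A voltage-gated sodium channel is built around a large alpha subunit that senses the membrane potential and forms the pore, and its opening drives the upstroke of the action potential. Small beta subunits with a single membrane span modify gating and bind to cell adhesion molecules. Voltage-gated calcium channels have a homologous alpha1 subunit. A cytoplasmic beta subunit and an extracellular alpha2delta subunit help most of these channels to reach the membrane, where the calcium that enters triggers transmitter release, shapes firing and signals to the nucleus. In the paraventricular nucleus these channels set the firing of neurosecretory and presympathetic neurons.

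Libraries held between 35114426 and 54421330 counts, and the channel genes together took between 0.3248% and 0.4445% of them. Mitochondrially encoded genes took 20.63% of the counts in KO replicate 1 and between 7.22% and 9.2% in the other 5 libraries. Adam17 itself stood at 17.1, 17.2 and 15.6 CPM (counts scaled to library size) across the WT libraries against 15.4, 14.5 and 13.9 CPM across the KO libraries. The log2 fold change was −0.19 (SE 0.11), and edgeR did not call it (adjusted p = 0.747). The deleted exon is not named and all cell types of the tissue are measured together, so the deletion was not checked. Neuronal markers were abundant (summed 6952 to 9914 CPM). The 8 markers of the labelled nucleus summed to 261 to 332 CPM, most of it Sst at 189 to 249 CPM. Pou3f2 stood between 23.2 and 44.4 CPM, Avp between 5.25 and 38.2 CPM, Oxt between 4.0 and 27.6 CPM and Sim1 between 0.626 and 2.51 CPM. Markers of neighbouring or distant brain regions were present too. The summed level of 8 striatal markers ran from 409 to 1284 CPM, and that of 11 markers of cortex and hippocampus from 1101 to 1672 CPM. That of 7 thalamic markers was 455 CPM in KO replicate 1 and 195 to 298 CPM in the other 5 libraries. Among the 7 cerebellar markers, Cbln3 stood at 65.5 CPM in WT replicate F1 and 33.5 CPM in KO replicate 1 against 0.294 to 2.14 CPM in the other 4 libraries, and Gabra6 and Pcp2 were high in the same 2 libraries. Car8, Calb2 and Zic1 were present in every library and also highest in those 2. Barhl1 was not, at 2.09 and 2.64 CPM there against 3.75 CPM in WT replicate 2. In bulk tissue of this kind, fewer cells of a type and less RNA per cell cannot be told apart.

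Levels of the channel genes ran from abundant to nearly silent. In TPM, a transcript abundance unit that corrects for transcript length and so allows genes to be compared, Cacnb3 stood at 185 ± 46.5 TPM (SD, n = 6 libraries), Scn2b at 162 ± 37.5 TPM and Scn4b at 131 ± 57.8 TPM, whose ranges over the libraries overlapped. These genes of accessory subunits had higher means than the pore-forming subunits, although Scn4b lay below Scn8a, Cacna1a and Scn2a in WT replicate F1 and KO replicate 1. The pore-forming subunits were led by Scn8a at 92.2 ± 17.5 TPM, Cacna1a at 86.1 ± 9.38 TPM and Scn2a at 77.3 ± 7.72 TPM. KO replicate 1 had the lowest TPM of all libraries for Cacnb3, Scn2b, Scn4b, Scn8a, Cacna1a and Scn2a. In CPM it was the highest library for Cacna1a (294 CPM) and Scn2a (367 CPM). The median log2 fold change of all genes was −0.24 in TPM, so a lower TPM in KO is not particular to a gene. The part of the mitochondrial counts in this was not tested. Scn4a and Cacna1f lay under a mean of 10 counts and were left out of the count tests, which left 30 genes among the 18956 tested.

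**Figure D1:**
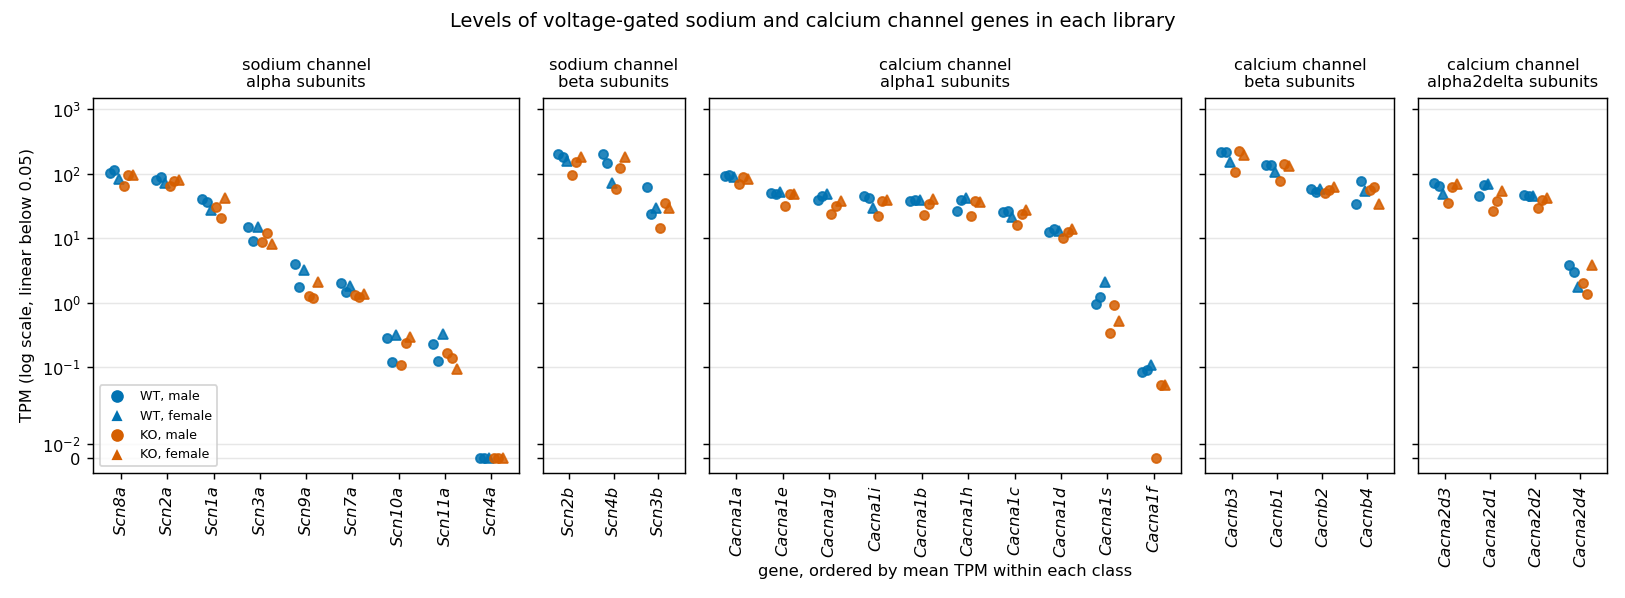
Levels of channel genes in TPM on a log axis that is linear near 0, with 1 point per library, colour for genotype and shape for sex. Genes are ordered by mean level within each class. Cacnb3 has a mean of 185 TPM, and Scn10a, Scn11a, Cacna1f and Scn4a lie under 1 TPM in every library.

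Of the sodium channel alpha subunits, Scn8a encodes the channel of the distal axon initial segment and the nodes of Ranvier. Its level was 102, 114 and 81.9 TPM across the WT libraries against 63.6, 95.1 and 96.2 TPM across the KO libraries, so the groups overlapped. Scn2a, which serves the proximal initial segment and unmyelinated axons of excitatory neurons, stood at 80.2, 87.7 and 72.7 TPM across WT against 65.0, 78.0 and 80.0 TPM across KO. Scn1a, known from fast-spiking inhibitory neurons and from Dravet syndrome in humans, averaged 33.1 ± 8.43 TPM (SD, n = 6). Scn3a, most abundant in the embryonic brain, averaged 11.2 ± 3.02 TPM. These 4 brain subunits made up most of the summed alpha subunit TPM, with mean shares of 41.4% for Scn8a, 35.1% for Scn2a, 14.9% for Scn1a and 5.13% for Scn3a. Alpha subunits known from other tissues were low. Scn9a of peripheral sensory and neuroendocrine neurons averaged 2.26 ± 1.13 TPM, and Scn7a, which encodes a sodium-sensing relative found in glia of the circumventricular organs, 1.54 ± 0.322 TPM. The nociceptor genes Scn10a and Scn11a averaged 0.228 ± 0.0916 and 0.18 ± 0.0858 TPM. The skeletal muscle gene Scn4a had 2 counts in each WT library and 0 counts in each KO library, and its TPM was listed at 0 in all 6. Both groups lie under the floor of 3 counts per library, which equals 0.0509 to 0.104 CPM, and no fold is given. The muscle marker list summed to 10.3 to 13.9 CPM, with Acta1 at 4.72 to 7.82 CPM and Ttn at 1.21 to 2.73 CPM. Ckm, Myl1 and Mb lay under 1 CPM in every library.

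None of the 9 alpha subunit genes tested passed the test between the genotypes. Here and for the genes that follow, the signed value in brackets after the levels is the log2 fold change, KO minus WT. In counts, Scn8a stood at 373, 401 and 209 CPM across the WT libraries against 300, 389 and 254 CPM across the KO libraries, a log2 fold change of −0.02 (SE 0.14, edgeR adjusted p = 0.982). The female library was the lowest of its group in both genotypes. Scn2a stood at 226, 308 and 208 CPM across WT against 367, 302 and 232 CPM across KO, a fold change of 0.27 on the log2 scale (SE 0.15, edgeR adjusted p = 0.745). The 2 groups overlapped, and KO replicate 1 was the highest library. Scn9a stood at 11.1, 5.63 and 11.6 CPM across WT against 8.06, 3.33 and 6.45 CPM across KO (−0.67, SE 0.39, edgeR adjusted p = 0.747). The groups again overlapped, and the value lay between −1.11 and −0.38 when each library was left out in turn. It was −0.38 without WT replicate 1, −0.39 without KO replicate 2 and −1.11 without KO replicate 1. Of the alpha subunits 2 had log2 fold changes above 0 and 7 below, with a median of −0.15 against 0 over all genes tested. Within their summed TPM, the share of Scn2a was 33.9% ± 1.45 in WT and 36.2% ± 1.82 in KO (SD, n = 3 each). The difference of 2.33 percentage points gave p = 0.3 in a two-sided exact permutation test, in which 3 against 3 libraries cannot go below 0.1. The share of Scn8a was 41.8% ± 2.98 in WT and 41.0% ± 4.12 in KO (exact permutation p = 0.7). The alpha subunits are close relatives in sequence. Scn3a, Scn2a, Scn1a, Scn9a and Scn7a lie near one another on chromosome 2 between positions 65457118 and 66784914, with a gap from 65767447 to 66270778 between Scn2a and Scn1a. Scn10a and Scn11a lie near each other on chromosome 9 between 119608456 and 119825456. Reads that match more than 1 alpha subunit gene may have been split, and Scn1a and Scn9a also overlap the gene models Gm13630 and Gm13629 on the other strand. The strand setting of the counting is not given, so these counts are uncertain to that extent.

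The beta subunits of sodium channels modify the gating and placement of the alpha subunits. Scn2b, whose product is linked to the alpha subunit by a disulphide bond, stood at 395, 364 and 311 CPM across WT against 301, 336 and 361 CPM across KO (−0.10, SE 0.13, edgeR adjusted p = 0.861), with overlap between the groups. The gene overlaps the gene model Gm10684. Scn3b, whose product associates with the alpha subunit without a covalent link, stood at 89.3, 27.7 and 36.2 CPM across WT against 29.3, 36.6 and 28.3 CPM across KO (−0.67, SE 0.43, edgeR adjusted p = 0.769). The fold change rests on WT replicate 1, without which it was −0.01. Scn4b, whose product supports the resurgent sodium current and which is known to be abundant in the medium spiny neurons of the striatum, was not selected by the naming rule and was chosen after its values were seen. It stood at 426, 309 and 149 CPM across WT against 200, 296 and 403 CPM across KO (0.08, SE 0.46), a 2.87-fold range over the libraries with both genotypes at either end.

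Of the calcium channel alpha1 subunits, Cacna1a encodes the pore of the P/Q-type channel that triggers transmitter release at most central synapses, and mutations in it cause ataxia in mice and humans. Its level was 92.0, 94.2 and 87.9 TPM across the WT libraries against 68.5, 90.6 and 83.4 TPM across the KO libraries. It was the highest of the class in every library, with a mean share of 27.7% of the summed alpha1 TPM. The R-type gene Cacna1e followed with a share of 14.9% and a level of 46.8 ± 7.45 TPM (SD, n = 6). The low-voltage-activated T-type genes, which support burst firing, lay next to each other, with Cacna1g at 37.7 ± 9.0 TPM, Cacna1i at 35.9 ± 8.43 TPM and Cacna1h at 34.0 ± 8.01 TPM. The N-type gene Cacna1b, the other main channel of transmitter release, stood among them at 35.7 ± 6.79 TPM, and these 4 did not differ beyond their spread. The neuronal L-type genes, which couple calcium entry to gene regulation and to pacemaking, were lower, with Cacna1c at 23.6 ± 4.15 TPM and Cacna1d at 12.6 ± 1.43 TPM. Cacna1s, the L-type gene of skeletal muscle, averaged 1.01 ± 0.631 TPM. Cacna1f, the L-type gene of photoreceptors, was counted 9, 11 and 15 times across WT and 0, 8 and 7 times across KO. Its library at 0 allows up to 3 counts, and it was too low for the edgeR test. Photoreceptor markers summed to 1.88 to 2.79 CPM, with Crx at 0 in all libraries.

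**Figure D2:**
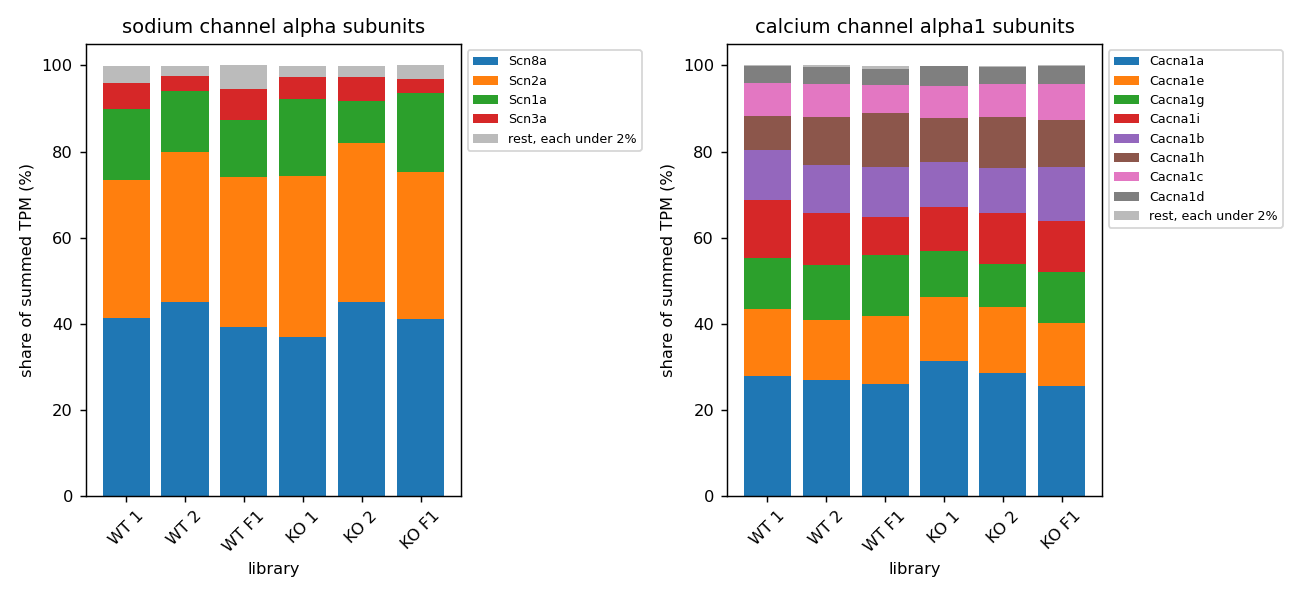
Stacked bars of the genes' shares of the summed TPM of the sodium channel alpha subunits (left) and calcium channel alpha1 subunits (right), in percent, by library, with genes under 2% on average drawn together. Scn8a and Scn2a hold most of the sodium channel alpha subunit TPM (means 41.4% and 35.1%), and Cacna1a is the leading alpha1 subunit in every library (mean 27.7%).

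The 9 alpha1 genes tested did not pass the test between the genotypes, and their log2 fold changes lay between −0.16 and 0.20, with 4 above 0 and 5 below. Cacna1a stood at 209, 222 and 199 CPM across the WT libraries against 294, 233 and 204 CPM across the KO libraries (0.20, SE 0.12, edgeR adjusted p = 0.747). KO replicate 1, the library rich in mitochondrial counts, was the highest, and the groups overlapped. The fold change of Cacna1a was 0.08 without KO replicate 1 and 0.02 without it and WT replicate F1. Cacna1e was the steadiest of all channel genes, at 312, 302 and 313 CPM across WT against 287, 330 and 303 CPM across KO (−0.01, SE 0.09, edgeR adjusted p = 0.98), a 1.15-fold range. Cacna1d stood at 47.5, 54.0 and 49.5 CPM across WT against 61.4, 54.2 and 54.5 CPM across KO (0.17, SE 0.11, edgeR adjusted p = 0.757). All 3 KO values lay above the WT values, by a narrow margin for KO replicates 2 and F1. Cacna1c stood at 109, 102 and 98.5 CPM across WT against 118, 114 and 102 CPM across KO (0.10, SE 0.09, edgeR adjusted p = 0.8), with overlap. Cacna1g, which encodes the main T-type channel of thalamic relay neurons, stood at 85.7, 107 and 110 CPM across WT against 94.5, 87.0 and 89.1 CPM across KO (−0.16, SE 0.12, edgeR adjusted p = 0.788), also with overlap. Its share of the summed alpha1 TPM was 13.0% ± 1.26 in WT and 10.9% ± 0.864 in KO (SD, n = 3 each). The difference of −2.13 percentage points gave an exact permutation p of 0.1, the smallest that 3 against 3 can give, and 0.775 after Benjamini-Hochberg adjustment over 31 shares. The shares of Cacna1d (0.408 percentage points), Cacna1s (−0.222) and Cacna1f (−0.0169) also reached p = 0.1 in the exact permutation test (adjusted p = 0.775). That of Cacna1f rests on the few counts given above. Cacna1s was counted 56, 41 and 110 times across WT and 43, 64 and 58 times across KO. In CPM it overlapped, with a log2 fold change of 0.13 (SE 0.28), opposite in sign to its share. Cacna1a, Cacna1c and Cacna1d overlap other tested genes (Gm16183, Dcp1b, and Chdh and Dcp1a), so their counts are uncertain to that extent.

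The cytoplasmic beta subunits of calcium channels, which bind the alpha1 subunit and raise its surface level, all had small positive log2 fold changes that did not pass the test (4 of 4 above 0, from 0.10 to 0.25). Cacnb3 stood at 258, 261 and 180 CPM across the WT libraries against 199, 295 and 243 CPM across the KO libraries (0.10, SE 0.18, edgeR adjusted p = 0.903). Cacnb1, which also serves skeletal muscle, stood at 191, 192 and 151 CPM across WT against 173, 218 and 189 CPM across KO (0.13, SE 0.12, edgeR adjusted p = 0.816). Both overlapped between the genotypes, and both fold changes lay below 0 with library totals and on the TPM scale, where the median of all genes moved down as well. Without KO replicate 1 they were 0.29 for Cacnb3 and 0.25 for Cacnb1 (edgeR adjusted p = 0.55 and 0.542). With males only they were −0.07 and 0.03. Cacnb2, the main beta subunit of heart, stood at 66.4, 58.5 and 58.6 CPM across WT against 87.4, 65.0 and 66.1 CPM across KO (0.25, SE 0.14, edgeR adjusted p = 0.745). KO replicate 1 was again the highest library, and WT replicate 1 lay above the other KO libraries. The fold change of Cacnb2 was 0.11 without KO replicate 1. Cacnb4, the gene mutated in lethargic mice, varied most in the class, at 84.3, 236 and 172 CPM across WT against 294, 204 and 89.7 CPM across KO (0.12, SE 0.51; chosen after its values were seen). Its lowest values came from 1 library of each genotype, WT replicate 1 and KO replicate F1. By share of the summed TPM, Cacnb3 averaged 44.0%, Cacnb1 29.1%, Cacnb2 13.8% and Cacnb4 13.0%. Cacnb1, Cacnb2 and Cacnb4 each overlap gene models that were tested too.

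Among the alpha2delta subunits, glycosylated proteins that carry channels to the presynaptic membrane, Cacna2d1 had the smallest p of all channel genes between the genotypes. Cacna2d1, which encodes the main binding site of gabapentin and also a receptor for thrombospondins, lies on chromosome 5 from 15934691 to 16374511 on the plus strand. It stood at 106, 186 and 190 CPM across the WT libraries against 103, 104 and 91.8 CPM across the KO libraries. The KO libraries lay close together, WT replicate 1 lay just above them, and WT replicates 2 and F1 were well above both. Group means were 161 CPM for WT (SD 47.3, n = 3) and 99.6 CPM for KO (SD 6.8, n = 3), for a log2 fold change of −0.68 (SE 0.23) with an unadjusted p of 0.021, which did not pass over all genes (edgeR adjusted p = 0.735, DESeq2 adjusted p = 0.307). Leaving out 1 library at a time gave values from −0.93 to −0.48, with the 2 ends at WT replicate 1 and WT replicate 2. In TPM the genotypes overlapped, at 45.1, 66.2 and 69.1 TPM across WT against 26.2, 38.2 and 54.6 TPM across KO, since KO replicate F1 stood higher on that scale. The remaining alpha2delta genes lay nearer to 0. Cacna2d3 stood at 113, 102 and 75.2 CPM across WT against 88.7, 110 and 111 CPM across KO (0.11, SE 0.17, edgeR adjusted p = 0.886). Cacna2d2, mutated in ducky mice, stood at 82.2, 81.1 and 81.4 CPM across WT against 99.6, 91.1 and 76.4 CPM across KO (0.12, SE 0.11, edgeR adjusted p = 0.807). The WT libraries of Cacna2d2 were nearly equal, and the KO libraries spread to either side of them. Cacna2d4, known from the retina, averaged 2.63 ± 1.06 TPM (n = 6), against 59.0 ± 14.1, 49.9 ± 16.6 and 41.5 ± 6.32 TPM for Cacna2d3, Cacna2d1 and Cacna2d2.

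**Figure D3:**
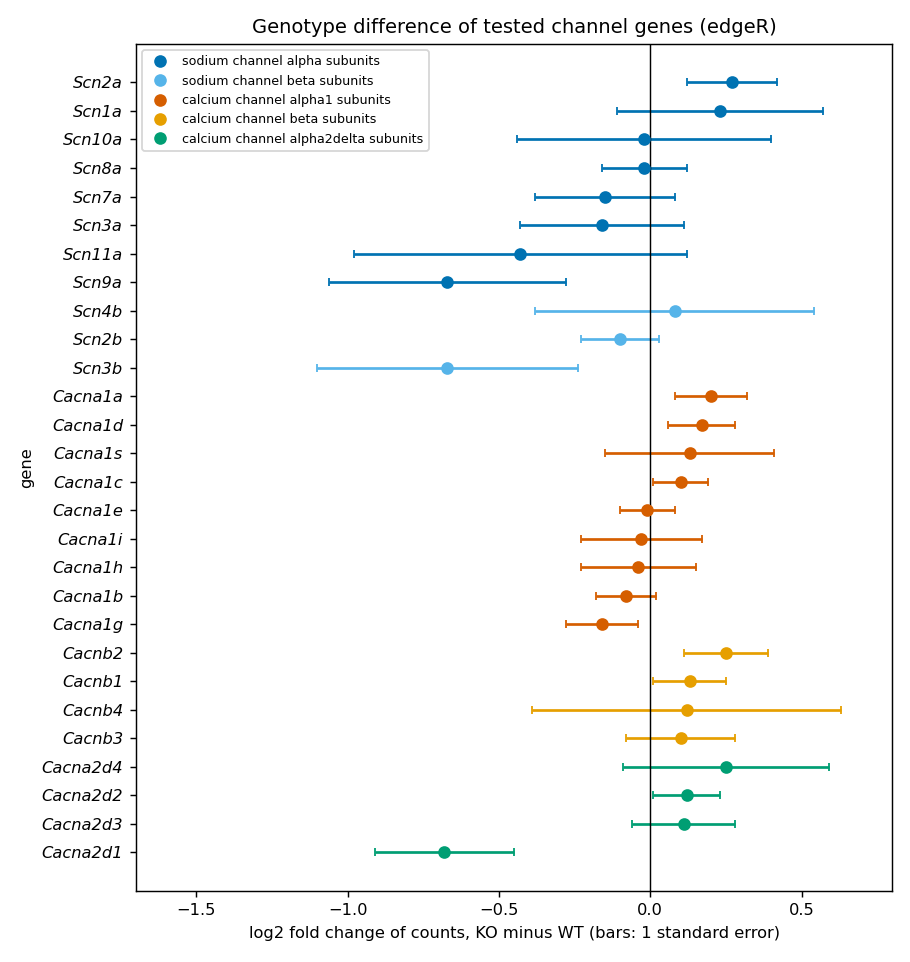
Log2 fold change of counts, KO minus WT, for channel genes tested, with bars of 1 standard error and colours for the subunit classes. Most lie near 0, and Cacna2d1 (−0.68), Scn3b (−0.67) and Scn9a (−0.67) lie farthest out.

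Over the whole set, 0 of 30 genes passed the adjusted threshold of 0.05 in edgeR, where 1 gene of 18956 (0.00528%) passed, and 0 passed in DESeq2, where 75 genes (0.396%) did. At an unadjusted p under 0.05 there was 1 channel gene in edgeR, Cacna2d1 (3.33%), against 6.38% of all genes (3.85% higher and 2.53% lower in KO), and 1 in DESeq2 against 6.84%. The genotypes did not overlap in CPM for 2 channel genes (6.67%), Cacna1d with KO above and Cacna2d1 with KO below, against 13.9% of all genes (6.61% with KO above and 7.32% below). The channel genes thus gave such calls no more often than genes at large. Their log2 fold changes had a median of −0.01, with 14 above and 16 below 0, and the median size was 0.13 against 0.16 over all genes, with a median SE of 0.18 in both. For 26 of the 30 the estimate lay within 0.3 of 0 on the log2 scale. A p above the threshold does not show that a gene was equal in both genotypes, and a difference of the size estimated for Cacna2d1 was not called at its SE of 0.23.

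What set several channel genes apart from one another was the spread between libraries of the same genotype. The standard deviation of log2 CPM within genotypes was over 0.5 for 7 of 30 channel genes (23.3%), against 13% of all genes, and its median was 0.30 against 0.22. The 7 were Scn9a, Cacnb4, Scn10a, Scn4b, Scn1a, Scn3b and Scn11a, of which Scn10a and Scn11a were counted at under 1 CPM. The ratio of the highest to the lowest library was 3.50 for Scn9a, 3.48 for Cacnb4, 3.39 for Scn11a, 3.23 for Scn3b and 2.87 for Scn4b, and only 1.15 for Cacna1e, 1.17 for Cacna1b and 1.20 for Cacna1c. The extremes were not the same libraries for each gene. Scn4b was highest in WT replicate 1 and lowest in WT replicate F1, Scn1a was highest in KO replicate 1 at 165 CPM and lowest in KO replicate 2 at 70.1 CPM, and Cacnb4 was highest in KO replicate 1 and lowest in WT replicate 1.

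**Figure D4:**
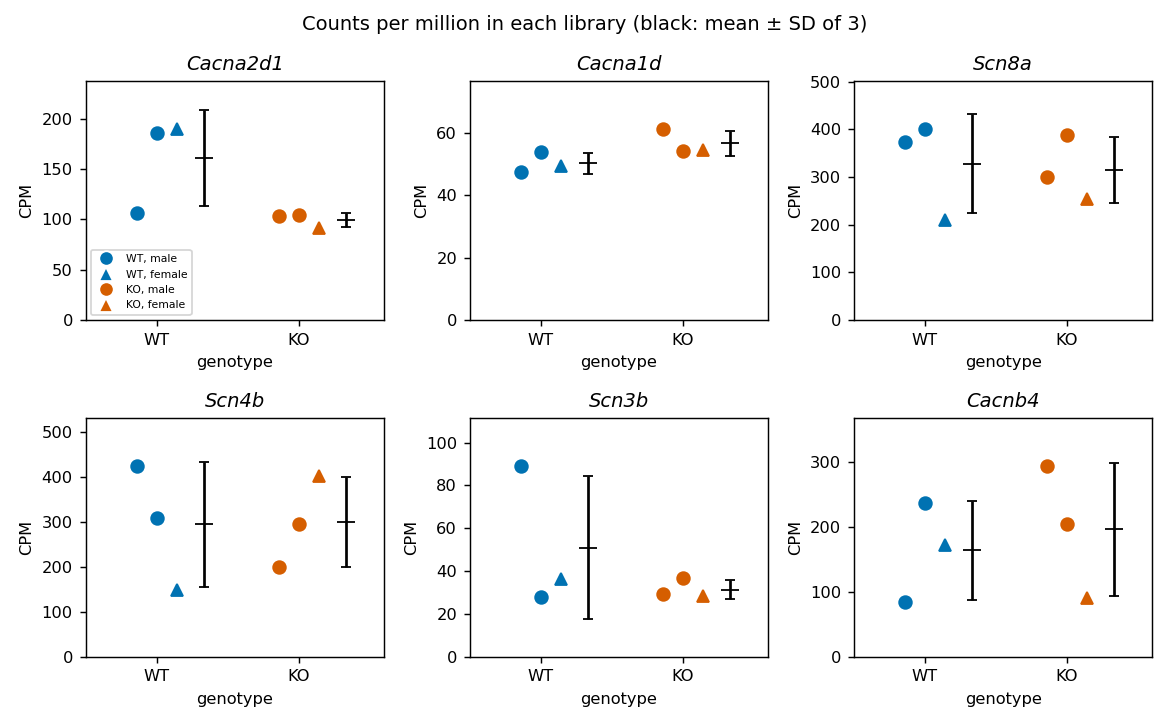
CPM of Cacna2d1, Cacna1d, Scn8a, Scn4b, Scn3b and Cacnb4 in each library by genotype, with colour for genotype, shape for sex and black bars for the mean ± SD of 3 libraries. Cacna2d1 and Cacna1d do not overlap between the genotypes, while Scn4b (149 to 426 CPM), Scn3b and Cacnb4 spread widely within a genotype.

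Scn4b ran beside the striatal markers at both ends of its range, but not in KO replicate 1. The summed level of the 8 striatal markers was 1284, 895 and 409 CPM across the WT libraries against 920, 1076 and 1201 CPM across the KO libraries. WT replicate 1 and KO replicate F1 were the highest and WT replicate F1 the lowest in both. KO replicate 1 broke the match. Its marker sum of 920 CPM lay above the 895 CPM of WT replicate 2, while Scn4b was 200 against 309 CPM. Drd1, the dopamine receptor of the direct pathway, stood at 55.6, 40.9 and 21.3 CPM across WT against 33.8, 41.0 and 51.4 CPM across KO, and Ppp1r1b, which encodes DARPP-32, at 483, 358 and 166 CPM and 309, 432 and 472 CPM. Drd2 and Six3 were instead highest in KO replicate 1, at 87.5 and 74.3 CPM, and the other markers peaked in WT replicate 1 or KO replicate F1. All 8 markers had log2 fold changes above 0 (median 0.42), and 0 passed the test. The part of these cells in the Scn4b values was not tested.

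**Figure D5:**
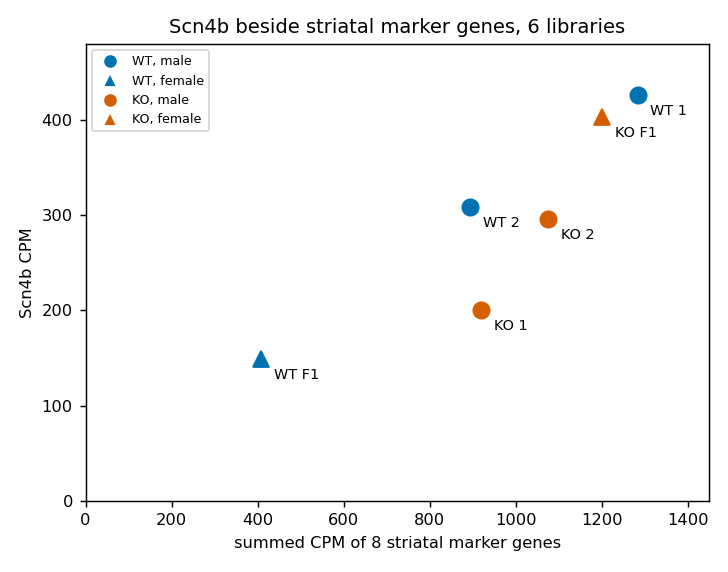
Scn4b in CPM against the summed CPM of 8 striatal markers, with 1 point per library, colour for genotype and shape for sex. WT replicate F1 is lowest on both axes (149 and 409 CPM) and WT replicate 1 highest (426 and 1284 CPM).

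Between the sexes, 0 of 30 channel genes passed in edgeR, against 8 of all genes (0.0422%). At an unadjusted p under 0.05 there were 2 (6.67%), both lower in the females, against 4.58% of all genes (1.95% higher and 2.63% lower). Scn8a stood at 209 and 254 CPM in the female libraries and between 300 and 401 CPM in the 4 male libraries, so the sexes did not overlap (female minus male log2 fold change −0.66, SE 0.16, unadjusted p = 0.00477, edgeR adjusted p = 0.941). Scn2a averaged 220 CPM in females and 301 CPM in males (−0.44, SE 0.16, edgeR adjusted p = 0.941), with 1 male library, WT replicate 1, inside the female range. Both differences rest on 2 female libraries. In KO the female library of Scn8a stood at 254 CPM against 300 and 389 CPM in the males, a narrower gap than in WT. In edgeR, Scn2a did not stay under an unadjusted p of 0.05 without WT replicate 2, without KO replicate 1 or with library totals. Scn8a stayed under it in each of those fits. The median over the channel genes was −0.14 against 0 over all genes. In TPM, where Scn8a was 81.9 and 96.2 TPM in the females and 63.6 to 114 TPM in the males, the sexes overlapped.

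The difference between the genotypes was also compared between the sexes, which rests on 1 female library per genotype and 2 residual degrees of freedom. No channel gene passed (0 of 30, edgeR, against 0.0739% of all genes), and 4 had an unadjusted p under 0.05 (13.3%), 3 of them positive and 1 negative, against 7.42% of all genes (3.73% positive and 3.68% negative). Scn4b had the smallest p. Its KO minus WT difference was −0.57 in males and 1.44 in females on the log2 scale, an interaction, female minus male, of 2.01 (SE 0.41, unadjusted p = 0.00287, edgeR adjusted p = 0.301). The others were Cacna1i (0.87, SE 0.27, edgeR adjusted p = 0.466), Cacna2d3 (0.68, SE 0.26, edgeR adjusted p = 0.608) and Scn3a (−1.07, SE 0.41, edgeR adjusted p = 0.619). Cacna1i stood at 150, 142 and 93.1 CPM across the WT libraries against 103, 131 and 136 CPM across the KO libraries. It was lowest in WT replicate F1 and KO replicate 1, the 2 libraries with high Cbln3, Gabra6 and Pcp2. Scn4b was lowest in the same 2 libraries, and the part of region markers in these values was not tested. With 1 library left out the fits had 1 residual degree of freedom, and the number of calls over all genes varied widely. The channel genes past the threshold numbered 1 of 31 (3.23%) without WT replicate 1, namely Scn4b, against 0.83% of all genes. They numbered 2 of 30 (6.67%) without WT replicate 2, Scn4b and Cacnb4, against 0.818%. Without KO replicate 2 they numbered 7 of 31 (22.6%) against 7.71%, and without KO replicate 1 they numbered 0 of 31 against 1.68%.

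The stretches before the RefSeq starts of Cacna2d1, Scn8a and Scn4b, the genes with the smallest p for genotype, sex and interaction, are shown for their base composition and GC boxes. Each is 250 bases long, written 5′ to 3′ in GRCm38.p6 on the plus strand, at chr5:15934441-15934690, chr15:100870395-100870644 (the upstream of 2 starts) and chr9:45138374-45138623. The deposited coordinates start Scn8a at 100869858 and Scn4b at 45138395. By these, the Scn8a stretch lies wholly and the Scn4b stretch mostly inside the gene, and only that of Cacna2d1 lies before it. Capitals mark GGGCGG, the core of the GC box, on either strand.
Cacna2d1: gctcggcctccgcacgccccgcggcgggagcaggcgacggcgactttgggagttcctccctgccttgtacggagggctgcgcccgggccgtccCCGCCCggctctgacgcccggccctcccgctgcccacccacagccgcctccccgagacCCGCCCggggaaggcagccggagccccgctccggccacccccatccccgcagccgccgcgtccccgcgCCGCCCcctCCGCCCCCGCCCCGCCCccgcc
Scn8a: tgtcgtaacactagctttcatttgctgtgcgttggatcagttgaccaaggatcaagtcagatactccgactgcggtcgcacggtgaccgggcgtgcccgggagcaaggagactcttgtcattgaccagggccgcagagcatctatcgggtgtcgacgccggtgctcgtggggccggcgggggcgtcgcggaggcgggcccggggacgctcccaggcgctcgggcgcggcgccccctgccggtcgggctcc
Scn4b: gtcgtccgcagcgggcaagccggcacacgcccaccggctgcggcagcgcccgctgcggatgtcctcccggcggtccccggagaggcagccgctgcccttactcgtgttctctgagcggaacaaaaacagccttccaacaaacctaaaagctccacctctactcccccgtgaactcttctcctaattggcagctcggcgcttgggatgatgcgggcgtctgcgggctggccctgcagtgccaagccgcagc
The Cacna2d1 stretch was 82.4% G or C with 36 CpG pairs and 6 GC boxes. Those of Scn8a and Scn4b held no GC box, at 68% G or C with 30 CpG pairs and 66% with 23. Of the channel genes 24 matched the RefSeq table, with 34 starts among 32841 in all, and their stretches had a median of 56% G or C and 9 CpG pairs against 52.4% and 6. Searched on both strands, GGGCGG was in 13 of the 34 (38.2%) against 32.7% of all, and TATAAA in 2 (5.88%) against 12.4%. GGACAG, a piece of the RE1 element bound by the repressor REST, was in 2 (5.88%) against 18.7%. TGACGTCA, the cAMP response element, and TCAGCACC, another piece of RE1, were in 0 of the 34, against 1.55% and 1.32% of all. A match is a run of letters and not a binding site.

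Partner proteins of the channels gave 0 genes past the threshold in every list. Among 18 partners of sodium channels and the axon initial segment, 15 had log2 fold changes above 0 and 3 below (median 0.12 against 0 over all genes). Nedd4l, a ubiquitin ligase that removes sodium channels from the membrane, stood at 159, 147 and 120 CPM across the WT libraries against 217, 166 and 164 CPM across the KO libraries (0.37, SE 0.12, edgeR adjusted p = 0.735). All KO values lay above the WT values. Its relative Nedd4 (0.38) and the calmodulin gene Calm2 (0.23) had the same adjusted p. In the sodium leak channel complex, 4 genes were found by the names searched, with 3 above 0 and 1 below (median 0.04). Fam155a, an auxiliary subunit, was at 0.25, Unc80 at −0.07 and Nalcn, the pore, at 0.05.

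The gamma family, of which most members act on AMPA receptors rather than on calcium channels, had 7 of 8 log2 fold changes above 0 and a median of 0.32. Cacng3 stood at 102, 111 and 80.2 CPM across WT against 160, 138 and 109 CPM across KO (0.47, SE 0.10, unadjusted p = 0.0027, edgeR adjusted p = 0.735), and the groups overlapped by 1 library on each side. Cacng7 (0.48) and Cacng2, which encodes stargazin (0.44), did not overlap and had the same adjusted p, with KO replicate 1 the highest library of all 3 genes. The markers of cortex and hippocampus had 11 of 11 log2 fold changes above 0 (median 0.31, 0 past the threshold). They summed to 1442 CPM in KO replicate 1 and 1672 CPM in KO replicate 2. The cerebellar marker Cbln3 stood at 33.5 CPM in KO replicate 1. It stood at 65.5 CPM in WT replicate F1, the lowest library of all 3 genes. The part of region markers in these values was not tested. Among 20 partners of calcium channels, 12 were above 0 and 8 below (median 0.11). Camk2b, a subunit of the calmodulin-dependent kinase that binds calcium channels, stood at 606, 577 and 540 CPM across WT against 710, 766 and 680 CPM across KO (0.32, SE 0.09, edgeR adjusted p = 0.735), with no overlap. Stac2, an adaptor that slows inactivation of L-type channels, was at 0.46, with overlap.

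Of the 6 channels that release calcium inside the cell, 1 had a log2 fold change above 0 and 5 below (median −0.16). Ryr3, a ryanodine receptor, stood at 61.3, 52.9 and 48.8 CPM across WT against 37.6, 37.3 and 48.7 CPM across KO (−0.41, SE 0.15, edgeR adjusted p = 0.735). KO replicate F1 lay just under WT replicate F1. Ryr1 was at −0.41 and the inositol trisphosphate receptor gene Itpr3 at −0.26. Repressors that act at RE1 elements of neuronal genes had 5 of 8 above 0 (median 0.05), with the corepressor gene Rcor2 at 0.28, Sin3a at 0.21 and Ehmt2 at −0.09.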

How the data were processed

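Messenger RNA libraries were made from total RNA extracted with a TRIzol-type kit, per the labels' protocols. The submitters' processing notes name FastQC 0.11.2, Trimmomatic 0.36 and also bedtools 2.26.0. Aligner, counting tool, strand setting and genome build are not stated there. Coordinates of 29 of the 32 channel genes are identical in GENCODE M21 (GRCm38), and coordinates are printed as the deposited table gives them. The authors deposited raw counts, TPM and FPKM per gene and library, per the file headers. FPKM was only checked, being proportional to TPM in each library.

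Counts were filtered with filterByExpr by genotype, scaled by TMM, a trimmed mean of log ratios, and fitted with edgeR 4.0.16 (R 4.3.3), robust quasi-likelihood, with sex and genotype as terms, over all 18956 genes kept. P-values were adjusted by Benjamini-Hochberg over all of them at 0.05. Fold changes are KO minus WT, on the log2 scale, with SE the fold change divided by the root of F. A fit with the product of sex and genotype gave the interaction. CPM values are TMM-scaled. Shares of summed TPM were compared by exact permutation over 20 groupings. Alternatives were DESeq2 1.42.0, voom and limma-trend on log2(TPM + 1) from limma 3.58.1, other scaling and filters, and leaving out libraries. The floor for a count of 0 was 3 counts per library and covers counting error only. The letters before gene starts come from RefSeq, GRCm38.p6.

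Channel genes named with full statistics were the 10 with the smallest p, the 2 most abundant of each class and those under a mean of 10 counts, and up to 3 genes with the smallest p per partner list. Others were chosen after their values were seen. A few genes that the rule picked are not reported here. The channel genes, marker lists and partner lists were chosen with earlier results of these data known. Other marker lists had 0 genes past the threshold, with median log2 fold changes of 0.06 for neurons, −0.34 for the paraventricular nucleus, 0.14 for thalamus, 0.17 for cerebellum, −0.10 for oligodendrocytes, −0.08 for their precursors, −0.01 for astrocytes, −0.19 for microglia, 0.10 for vessels, −0.02 for choroid plexus and ependyma, −0.03 for striated muscle, −0.17 for sensory ganglion and −0.02 for photoreceptors. Of the pituitary list 1 gene was tested (−1.13), and Pou1f1 was at 0.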

Additional observations from a re-analysis of the deposited data

How the results depend on the processing

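The count of channel genes past the adjusted threshold between the genotypes was 0 under every alternative run. The count over all genes, 1 in edgeR, was 4 with no filter on low counts, 75 with DESeq2, 4 with voom, 4 with limma on TPM, 3 with no sex term, 18 with males only and 27 without WT replicate F1 and KO replicate 1 together. It was 0 to 20 with 1 library left out. The count of channel genes at an unadjusted p under 0.05, which was 1 of 30, was 3 with library totals (10% against 7.06% of all genes), 0 with voom (against 8.63%), 4 with limma on TPM (13.3% against 7.32%), 0 with males only (against 8.76%) and 0 without both libraries together (against 6.51%). It was 0 to 4 with 1 library left out (0% to 12.9%, against 2.66% to 8.97%). The median log2 fold change of the channel genes, −0.01, was −0.17 with library totals and −0.22 on TPM, where the median of all genes was −0.17 and −0.24, and −0.04 to 0.05 with 1 library left out. With the replicate number as a block, 0 genes passed and 2 channel genes (6.67%, against 5.29% of all genes) had an unadjusted p under 0.05. Same-numbered libraries did not deviate together (correlations −0.05, 0.02 and 0.01), so the numbers were not read as pairs.

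Of the 16 channel genes named by rule, 6 kept the sign of their fold change over 18 alternatives and 0 passed the threshold in any. The 18 were not all separate checks. With either female library left out, the sex term takes up the other, and the genotype difference rests on the 4 male libraries. Those fits gave the same values as males only, such as −0.50 for Cacna2d1 and 0.29 for Cacna1a. The sign turned with library totals for Cacna1c (−0.06), Cacna2d2 (−0.05), Cacna2d3 (−0.05), Cacnb1 (−0.03) and Cacnb3 (−0.05), and on TPM for Cacna1a (−0.18), Cacna1c (−0.14), Cacna1d (−0.11), Cacna2d2 (−0.31), Cacna2d3 (−0.18), Cacnb1 (−0.16), Cacnb3 (−0.20) and Scn2a (−0.11), in both cases with the median of all genes below 0. It turned with voom for Cacna1e (0.04) and Scn8a (0.02), with males only for Cacna1e (0.01), Cacna2d3 (−0.12) and Cacnb3 (−0.07), and without both libraries for Cacna1e (0.05). The cause was not tested. With 1 library left out the ranges were −0.07 to 0.04 for Cacna1e, −0.12 to 0.26 for Cacna2d3, −0.07 to 0.29 for Cacnb3 and −0.17 to 0.13 for Scn8a. The share differences ranged from −0.961 to 3.27 percentage points for Scn1a, −2.91 to 1.21 for Scn8a and −0.686 to 0.201 for Cacna1e. The sex and interaction alternatives were chosen after seeing the data, and the interaction could not be fitted without either female library. Channel genes past the interaction threshold numbered 0 to 7 with 1 library left out (0% to 22.6%, against 0.818% to 7.71% of all genes). Those at an unadjusted p under 0.05 numbered 5 to 12 (16.1% to 38.7%, against 5.61% to 27.2%), and 2 with library totals (6.67% against 5.76%). For sex the latter count was 2 to 5 with 1 library left out (6.67% to 16.1%, against 2.42% to 8.35%). Scn4a and Cacna1f had too few counts for the filter, and Scn10a (12 to 53 counts, SE 0.42) and Scn11a (10 to 49 counts, SE 0.55) were tested at low counts.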

Other observations

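The deposited counts and TPM values imply different transcript lengths in different libraries. Dividing the count by the TPM, relative to the library's median gene, gives a relative length, and the ratio of its highest to its lowest library had a median of 1.17 over 27 channel genes against 1.06 over 14553 genes. Scn4b, Cacnb1, Cacna1d and Cacna2d3 were nearly constant, at a ratio of 1.01. Cacna1h had a ratio of 1.93 and Cacna2d4 of 1.82. Cacna2d1 had a relative length of 1.48 in KO replicate F1 and 2.13 to 2.53 in the other 5 libraries, and KO replicate F1 was the lowest KO library in CPM and the highest in TPM.

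Scn8a had a relative length of 2.32 in both female libraries and 2.66 to 3.34 in the 4 male libraries. Scn2a stood at 2.55, 2.61 and 2.55 in WT replicate 1, WT replicate F1 and KO replicate F1, against 3.16, 3.18 and 3.15 in WT replicate 2 and KO replicates 1 and 2. These values were found after the data were seen, have no test, and depend on how the authors' tools assigned reads to transcripts, which no label states.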
